A study of Mus musculus with 6 samples.

Results

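The interleukin-1 (IL-1) and interleukin-18 (IL-18) axis was followed in kidney fibroblasts through 10 genes, chosen by name as Il1a, Il1b, Il1rn, Il1r1, Il1r2, Il1rap, Il18, Il18bp, Myd88 and Casp1, out of 34745 genes in the expression table. All 10 were found, each on 1 row. In wild-type primary mouse renal fibroblasts cocultured with Th17 cells, Il1a, Il1r1 and Il1rap were higher than in fibroblasts alone, and Il1b, Il1rn, Il18, Il18bp and Myd88 were lower, while Casp1 and Il1r2 had too few counts for the main test. Il1a carried nearly all of the IL-1 ligand transcript in every library.

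IL-1α and IL-1β are related cytokines that bind the same receptor, IL-1R1, which signals once the accessory chain IL-1RAcP (made from Il1rap) joins it and the adaptor MyD88 is recruited. The receptor antagonist (Il1rn) occupies IL-1R1 without signalling, and IL-1R2 is a decoy that binds the ligand but lacks a signalling domain. IL-18 is a related cytokine held in check by a soluble binding protein (Il18bp), and caspase-1 (Casp1) cleaves the precursors of IL-1β and IL-18 into their active forms, whereas IL-1α is active without that cleavage.

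The RNA libraries came from fibroblasts grown on their own (3 libraries) or kept for 24 hours beneath an insert with 0.4 µm pores that held Th17 cells (3 libraries), after 6 hours of attachment. How long the fibroblasts alone were kept after attachment, and whether under an empty insert, was not stated in the sources used here. A difference in culture time or insert thus cannot be told apart from the presence of Th17 cells. The fibroblasts were grown out of digested kidney, and only they were collected. The Th17 cells had been induced from spleen CD4+ T cells in a medium that contained IL-1β itself, IL-6, IL-23 and an antibody to IFN-γ, and whether any of it was carried into the insert was not tested. The age and sex of the mice, and whether libraries of a group came from separate cultures or animals, were not stated in the sources used here, so the errors and p-values measure only how these libraries differ among themselves, which may be technical.

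Each library held between 12050529 and 13209581 counts, and 3 counts, the floor used for detection, corresponded to between 0.223 and 0.254 CPM (the count scaled to the library's TMM-normalised total). All 13 fibroblast markers were detected and tested, of which 10 were lower (5 past fold 2) and 1 higher with Th17 cells, and their summed level was between 41497 and 43194 CPM alone and between 18037 and 20620 CPM with Th17 cells. Col1a1, Col1a2 and Acta2 had log2 fold changes of -1.28, -1.43 and -1.12. Of 22 macrophage markers, 10 were at 0 in all 3 cocultured libraries, and the summed level was between 67.5 and 72.6 CPM alone and between 20.7 and 22.1 CPM with Th17 cells. The summed level of the 11 kidney epithelium markers was 22.2 to 23.8 CPM alone and 7.84 to 9.12 CPM with Th17 cells, and that of the 8 endothelium markers was 9.96 to 10.2 CPM and 5.18 to 5.90 CPM. The 20 T cell markers summed to 8.54 to 9.33 CPM alone and 5.03 to 6.03 CPM with Th17 cells, and the 13 neutrophil and dendritic cell markers to 3.81 to 6.52 CPM and 4.32 to 6.47 CPM, the last pair of ranges overlapping. Of the T cell markers Lck had log2 -1.04 and Trac 0.03, Cd28 had at most 15 counts, and 8 were at 0 in every library, among them Cd3d and Il17a (named after their values were seen). The part of these lists in the results for the axis genes was not tested. Of the 13088 genes tested with edgeR, 17.1% were called higher and 20% lower with Th17 cells at an adjusted p below 0.05, 37.1% in either direction together. With a fold change above 2 as well, which is the study's threshold, 3.87% were higher and 7.78% lower. Against this background 8 of the 10 axis genes could be tested, of which 3 were higher (1 past fold 2) and 5 lower (5 past fold 2). Groups did not overlap in CPM for 50.4% of all genes tested and for all 8 axis genes tested. Among the untested axis genes they did not overlap for Casp1. However, Il1b and Il18 passed the filter on low counts only through the libraries of fibroblasts alone. A difference was thus a condition of their being tested, and no summary over the tested axis genes is drawn.

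**Figure D1:**
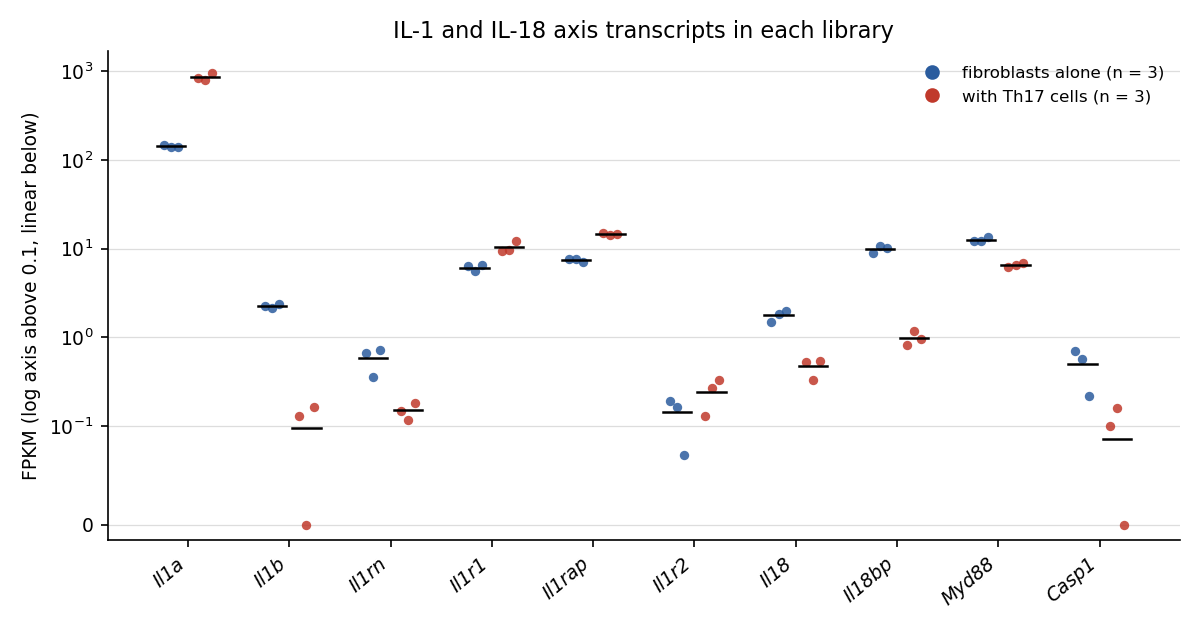
FPKM (fragments per kilobase of gene, scaled to library total) of the 10 axis genes in each library, on an axis that is logarithmic above 0.1 and linear below, with points for libraries and black bars for group means (n = 3 each). Il1a lies far above the others in both groups, at 143 FPKM alone and 854 FPKM with Th17 cells, and the groups overlap for Il1r2 only.

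Il1a, the gene of IL-1α, was the most abundant axis transcript. It lies on the minus strand at chr2:129299610-129309972 (mm10; ENSMUSG00000027399). The counts were 3857, 3577 and 3358 in fibroblasts alone and 21484, 19613 and 23752 with Th17 cells. All 3 cocultured libraries were thus far above all 3 libraries of fibroblasts alone, with a narrow spread in each group. In FPKM, which divides by gene length so that genes can be set side by side, the level was 143 ± 4.30 alone and 854 ± 77.9 with Th17 cells (SD, n = 3 each). Il1a ranked 241 among all genes by mean FPKM in fibroblasts alone and 33 with Th17 cells. Il1a was higher by a log2 fold change of 2.51 (SE 0.073, 95% interval 2.35 to 2.68, 5.71-fold, adjusted p = 4.06e-08 by edgeR). An antisense gene that overlaps it, Gm14023, had at most 4 counts in a library.

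Il1b, the gene of IL-1β, moved the other way. It lies next to Il1a on the same strand at chr2:129364570-129371139 (ENSMUSG00000027398), with a gap of 54.6 kb and 0 protein-coding genes between them. The counts were 70, 65 and 68 alone and 4, 0 and 5 with Th17 cells. All 3 cocultured libraries were near or below the floor, and the groups stood well apart. The log2 fold change was -4.51 (SE 0.45, adjusted p = 5.65e-05 by edgeR), and the ratio of the summed counts per depth, alone over cocultured, was 23.7 with an exact 95% counting interval of 12.3 to 52.7. The FPKM was 2.26 ± 0.133 alone and 0.0985 ± 0.0873 with Th17 cells. An antisense gene that overlaps exons of Il1b, Il1bos, had 0, 1 and 0 counts alone and 1, 1 and 4 with Th17 cells. Whether counting used strand is not given in the sources used here, so reads of this overlap cannot be assigned with certainty. Il1b is expressed strongly by macrophages, and macrophage markers fell alongside it. Adgre1, the gene of the macrophage antigen F4/80, had 71, 47 and 55 counts alone and 0 in each cocultured library, and the leukocyte gene Ptprc had 14, 12 and 11 against 0 (these were singled out after their values were seen). Lyz2, the marker with the most counts, fell by 3.05 on the log2 scale (SE 0.13, adjusted p = 2.07e-07 by edgeR), whereas Cd14 had a log2 difference of -0.00053 (adjusted p = 0.998 by edgeR). Cd68 fell by 0.93 (adjusted p = 0.00121 by edgeR). Of the 22 markers 9 could be tested, of which 8 were called lower, but 5 of these passed the filter on low counts only through the libraries of fibroblasts alone, so that the count is not set against the 20% of all genes called lower. The part of these cells in the results for Il1b, Il1rn, Il18 and Casp1 was not tested, and in bulk RNA fewer cells of a type and less RNA per cell cannot be told apart.

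Because the neighbouring IL-1 genes changed in opposite directions, their promoters are shown side by side, from 250 bases before to 50 bases after the RefSeq transcription start (GRCm38.p6, 5′ to 3′ along the minus strand). The Il1a window is chr2:129309923-129310222 and the Il1b window is chr2:129371090-129371389. Capitals mark a match to the AP-1 letters TGANTCA, which begins 12 bases before the Il1a start and is absent from the Il1b window. The other motifs searched on both strands were ISRE (GAAANNGAA), GAS (TTCNNNGAA), C/EBP (TTGCNNAA) and NF-kB (a longer letter pattern, not printed here). Neither window held a match to any of them.
Il1a promoter: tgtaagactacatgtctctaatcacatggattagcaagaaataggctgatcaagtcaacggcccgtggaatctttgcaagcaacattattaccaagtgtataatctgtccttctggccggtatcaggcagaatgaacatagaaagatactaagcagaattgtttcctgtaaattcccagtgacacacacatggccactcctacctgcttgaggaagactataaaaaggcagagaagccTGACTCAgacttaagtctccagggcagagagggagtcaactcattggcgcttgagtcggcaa
Il1b promoter: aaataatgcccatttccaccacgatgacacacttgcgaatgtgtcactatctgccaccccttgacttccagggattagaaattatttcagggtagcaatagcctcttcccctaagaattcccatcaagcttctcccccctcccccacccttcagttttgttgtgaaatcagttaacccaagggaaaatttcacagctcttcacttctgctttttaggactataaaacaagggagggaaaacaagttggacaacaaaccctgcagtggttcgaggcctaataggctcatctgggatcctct
Among 32851 RefSeq promoter windows of the same length, 7.81% held the AP-1 letters. A match in these letters describes the sequence and is not evidence of a bound factor.

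Of the summed FPKM of Il1a and Il1b, Il1a made up between 98.3% and 98.5% in fibroblasts alone and between 99.98% and 100% with Th17 cells.

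Il18, the gene of IL-18, was low throughout. The counts were 14, 17 and 17 alone and 5, 3 and 5 with Th17 cells, without overlap between the groups. The log2 fold change was -1.93 (SE 0.38, adjusted p = 0.00367 by edgeR), and the ratio of summed counts per depth, alone over cocultured, was 3.89 (exact 95% counting interval 2.07 to 7.82). The FPKM was 1.77 ± 0.254 alone and 0.472 ± 0.119 with Th17 cells. The deposited row (ENSMUSG00000039217) covers chr9:50575273-50581837 on the plus strand, while GENCODE places the whole gene at chr9:50554827-50581840, so these counts come from a row that spans the 3′ part of the gene.

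Among the inhibitors, Il1rn, the gene of the IL-1 receptor antagonist (chr2:24336853-24351494, plus strand, ENSMUSG00000026981), had 72, 38 and 71 counts alone and 16, 12 and 19 with Th17 cells. The lowest library of fibroblasts alone still exceeded the highest cocultured library. The log2 fold change was -2.02 (SE 0.32, 95% interval -2.75 to -1.28, adjusted p = 0.00116 by edgeR). Its FPKM was 0.587 ± 0.197 alone and 0.151 ± 0.0327 with Th17 cells. The RefSeq window at its most upstream start holds the AP-1 letters 141 bases before that start, and its other RefSeq windows held no match. Il1a, which rose, holds the AP-1 letters nearer to its own start, and they occur in 7.81% of all promoter windows.

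Il18bp, whose product neutralises IL-18, fell further. The counts were 166, 193 and 171 alone and 15, 21 and 17 with Th17 cells, and every cocultured library lay below every library of fibroblasts alone. This was a log2 fold change of -3.39 (SE 0.18, 95% interval -3.80 to -2.97, adjusted p = 1.08e-06 by edgeR), which is 10.5-fold. In FPKM the level was 9.92 ± 0.856 alone and 0.987 ± 0.194 with Th17 cells. The deposited row (ENSMUSG00000070427) is chr7:102015079-102018155 on the minus strand. In GENCODE the gene is slightly longer and runs into Numa1 on the opposite strand, but the deposited rows of the pair do not overlap.

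Il18bp is known as an interferon-induced gene. All 24 tested genes of the interferon response list were called lower with Th17 cells, 1 of them having passed the filter only through the libraries of fibroblasts alone, with a median log2 fold change of -1.93 beside 0.0038 over all genes tested, and their summed level was between 10117 and 10352 CPM alone and between 2411 and 2579 CPM with Th17 cells. Ifit1, an RNA-binding antiviral protein, had a log2 fold change of -1.69, Ifi44 of -1.70 and Cxcl10, an interferon-induced chemokine, of -4.47. The part of this shift in the results for Il18bp, Casp1 and Myd88 was not tested. The interferon list was chosen with earlier results of these data known, so its count beside all genes is not an independent comparison. The Il18bp promoter window is shown because it changed the most among the inhibitors. It is chr7:102018183-102018482 (GRCm38.p6, minus strand, 5′ to 3′), and capitals mark a match to the C/EBP letters TTGCNNAA that begins 49 bases before the start.
Il18bp promoter: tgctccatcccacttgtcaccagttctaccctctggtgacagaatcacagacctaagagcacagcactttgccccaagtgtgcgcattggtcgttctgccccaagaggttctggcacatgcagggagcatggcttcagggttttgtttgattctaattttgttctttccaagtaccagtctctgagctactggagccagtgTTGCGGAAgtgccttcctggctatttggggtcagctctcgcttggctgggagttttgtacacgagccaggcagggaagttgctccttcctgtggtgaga
The window held no match to the ISRE, GAS, AP-1 or NF-kB letters, and the C/EBP letters occur in 10.8% of all promoter windows. It lies upstream of the deposited row, which ends at 102018155. The GENCODE gene reaches further upstream, to 102018690, and no other window of this gene was searched.

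Il1r2, the decoy receptor, was near the floor. The counts were 6, 5 and 2 alone and 4, 8 and 10 with Th17 cells, with overlapping groups. It did not pass the filter on low counts, and without that filter the log2 fold change was 0.68 (SE 0.64, adjusted p = 0.494 by edgeR). The ratio of summed counts per depth, cocultured over alone, was 1.61 with an exact 95% counting interval of 0.775 to 3.48, so a difference was not detectable at this depth. The row is chr1:40074079-40125231 on the plus strand (ENSMUSG00000026073).

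The level of each inhibitor was also set against its ligand in FPKM. Il1rn amounted to 4.48, 2.55 and 5.07 FPKM per 1000 FPKM of Il1a plus Il1b in fibroblasts alone, and to 0.181, 0.149 and 0.195 with Th17 cells. The groups did not overlap, and the mean log2 ratio differed by -4.47, which is 22.2-fold. An exact two-sided permutation test of 3 against 3 libraries gave p = 0.1, the smallest value this design allows. Because Il1a was higher and Il1rn lower without overlap, this ratio was bound to separate. The test therefore adds nothing to the results for the single genes. It was the only one of 3 ratios with enough counts for a test. With the longest GENCODE transcript as the length, an alternative chosen after seeing the data, the same ratio was 14.1, 8.0 and 15.9 alone and 0.575, 0.473 and 0.618 with Th17 cells, a log2 difference of -4.46. Il18bp amounted to 6.05, 5.79 and 5.13 FPKM per FPKM of Il18 alone and to 1.53, 3.57 and 1.73 with Th17 cells. The cocultured values spread widely and rest on 3 to 5 counts of Il18 in a library, and no test was made. Il1r2 amounted to between 10.9 and 30.8 FPKM per 1000 FPKM of Il1r1 alone and to between 13.8 and 28.1 with Th17 cells, and these ranges overlapped.

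**Figure D2:**
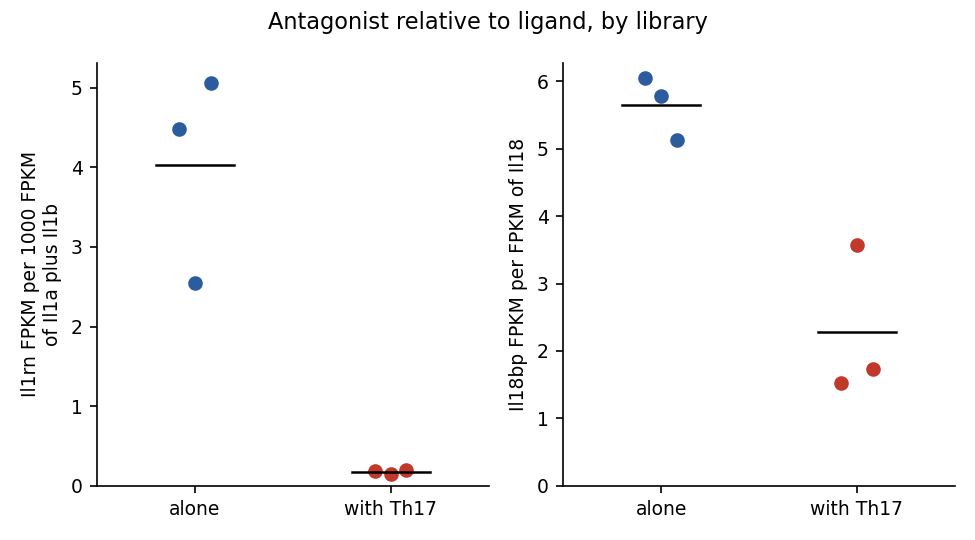
Left, FPKM of Il1rn per 1000 FPKM of Il1a plus Il1b in each library. Right, FPKM of Il18bp per FPKM of Il18. Points are libraries and black bars are group means (n = 3 each). The left-hand ratio lies between 2.55 and 5.07 alone and between 0.149 and 0.195 with Th17 cells.

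The signalling receptor chains rose modestly. Il1r1 (chr1:40225080-40317257, plus strand, ENSMUSG00000026072) had 816, 707 and 765 counts alone and 1216, 1192 and 1512 with Th17 cells. The groups did not overlap, and one cocultured library stood above the other two. Il1r1 was higher by a log2 fold change of 0.70 (SE 0.11, 95% interval 0.46 to 0.94, 1.63-fold, adjusted p = 0.000762 by edgeR). In FPKM this was 6.11 ± 0.480 alone and 10.4 ± 1.45 with Th17 cells.

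Il1rap (chr16:26581704-26730117, plus strand, ENSMUSG00000022514), whose product is the shared accessory chain of the IL-1, IL-33 and IL-36 receptors, had 1535, 1476 and 1278 counts alone and 2959, 2683 and 2824 with Th17 cells. Its cocultured libraries were all far above the others. Il1rap was higher by a log2 fold change of 0.91 (SE 0.062, 95% interval 0.77 to 1.05, 1.88-fold, adjusted p = 4.95e-06 by edgeR), and the FPKM was 7.44 ± 0.354 alone and 14.6 ± 0.368 with Th17 cells. Neither receptor chain passed the study's fold threshold of 2.

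Il1r1 and Il1r2 belong to a cluster of receptor genes on chromosome 1, whose other members were examined in their chromosomal order. Il1rl2, the IL-36 receptor chain next to Il1r1, had 582, 668 and 535 counts alone and 505, 468 and 438 with Th17 cells, a log2 fold change of -0.41 (SE 0.093, adjusted p = 0.00727 by edgeR). Il1rl1, the IL-33 receptor ST2, had 166, 153 and 144 counts alone and 1269, 1323 and 1673 with Th17 cells, a log2 fold change of 3.13 (SE 0.12, adjusted p = 1.54e-07 by edgeR). Adjacent genes of the cluster thus differed in direction and size. Il18r1, the ligand-binding chain for IL-18, had at most 1 count in any library (named after its values were seen). Il18rap, the accessory chain for IL-18, had 36, 31 and 37 counts alone and 100, 128 and 127 with Th17 cells, a log2 fold change of 1.70 (SE 0.19, adjusted p = 0.000122 by edgeR). Of the IL-18 receptor pair, then, the accessory chain was counted in every library and the binding chain was at or below the floor.

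**Figure D3:**
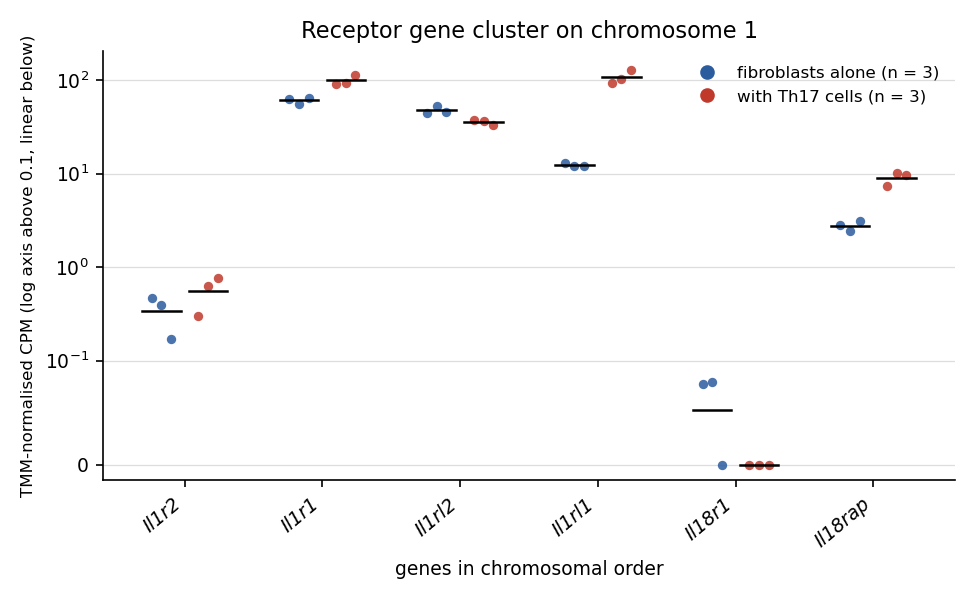
CPM, scaled by TMM (trimmed mean of M-values), of 6 receptor genes in their order along chromosome 1, in each library, on an axis that is logarithmic above 0.1 and linear below, with points for libraries and black bars for group means (n = 3 each). Il1rl1 has the widest gap between groups, Il1r2 overlaps and Il18r1 is at or near 0.

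Downstream of the receptors, Myd88 fell. The counts were 737, 730 and 745 alone and 373, 380 and 407 with Th17 cells, each group within a narrow range. The log2 fold change was -1.01 (SE 0.082, 95% interval -1.19 to -0.82, adjusted p = 1.52e-05 by edgeR), a 2.01-fold difference that lies at the study's fold threshold. The log2 fold change fell short of that threshold at -0.94 with library size alone as the scaling, at -0.96 without alone replicate 3, at -0.96 without with_Th17 replicate 1 and at -0.85 by limma on log2(FPKM + 1). The FPKM was 12.6 ± 0.720 alone and 6.53 ± 0.378 with Th17 cells. The row is chr9:119335934-119341411 on the minus strand (ENSMUSG00000032508) and overlaps Acaa1a on the opposite strand. Acaa1a, a peroxisomal thiolase, had 507, 415 and 458 counts alone and 256, 298 and 364 with Th17 cells, a log2 fold change of -0.66 (SE 0.14, adjusted p = 0.00543 by edgeR). Whether counting used strand is not given in the sources used here, so reads of the overlap cannot be assigned with certainty.

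The Myd88 promoter window is shown because it alone among the axis genes holds matches to both interferon-type motifs. It is chr9:119339969-119340268 (GRCm38.p6, minus strand, 5′ to 3′) around a RefSeq start that lies inside the deposited row. Capitals mark a GAS match that begins 46 bases before the start and an ISRE match that begins 40 bases before it, and the matches overlap.
Myd88 promoter: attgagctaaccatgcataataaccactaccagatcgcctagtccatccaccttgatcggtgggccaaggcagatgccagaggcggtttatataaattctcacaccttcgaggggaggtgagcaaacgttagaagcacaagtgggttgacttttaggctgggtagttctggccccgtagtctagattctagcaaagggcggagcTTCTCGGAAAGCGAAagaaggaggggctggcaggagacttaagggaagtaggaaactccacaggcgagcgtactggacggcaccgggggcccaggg
The ISRE letters occur in 8.56% and the GAS letters in 8.30% of all promoter windows. Il1rap, which rose, also holds the ISRE letters, beginning 21 bases after its start, and Il1r2 holds the GAS letters. Il1r1 holds the C/EBP letters at 1 start and an NF-kB match, found in 4.51% of windows, at the other. The windows of Il18 and Casp1 held no match. All 10 axis genes had a RefSeq window, 13 windows in all.

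Casp1 (chr9:5298517-5307265, plus strand, ENSMUSG00000025888) had 14, 11 and 4 counts alone and 2, 3 and 0 with Th17 cells. The groups did not overlap, but all 3 cocultured libraries were at or below the floor and the gene did not pass the filter. Without the filter the log2 fold change was -2.51 (SE 0.81, adjusted p = 0.0359 by edgeR), while DESeq2 gave an adjusted p of 0.0618. The ratio of summed counts per depth, alone over cocultured, was 6.10 (exact 95% counting interval 2.34 to 20.2). In FPKM the level was 0.499 ± 0.250 alone and 0.0871 ± 0.0809 with Th17 cells.

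**Figure D4:**
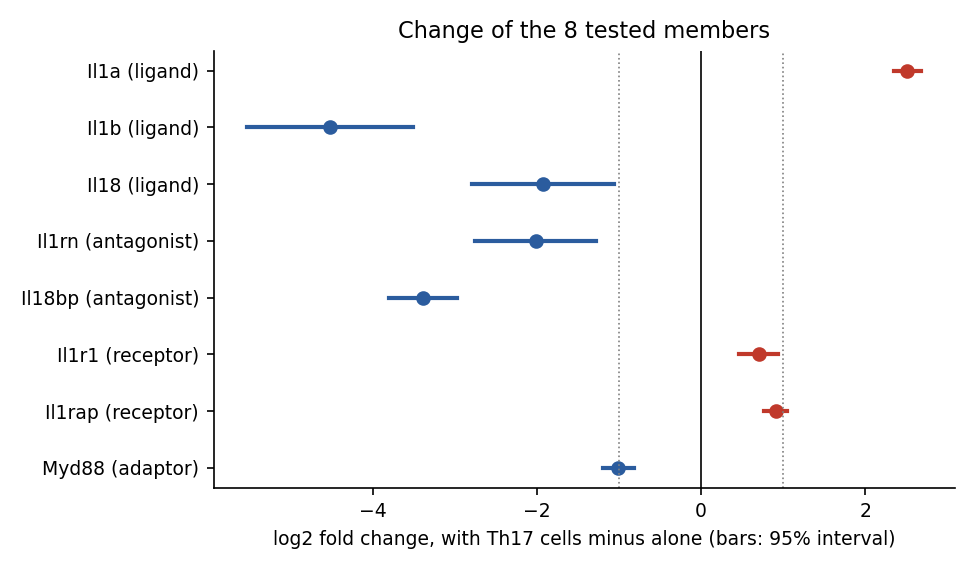
Log2 fold change of the 8 tested axis genes, with Th17 cells minus alone, by role, with 95% intervals as bars, from the fit over 13088 genes. Dotted lines mark a fold change of 2. Il1a, Il1r1 and Il1rap lie above 0, and the other 5 lie below it.

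By mean FPKM the order in fibroblasts alone was Il1a, Myd88, Il18bp, Il1rap, Il1r1, Il1b, Il18, Il1rn, Casp1 and Il1r2. The ranges of neighbours in that order were apart except for Il1rn and Casp1. With Th17 cells the order was Il1a, Il1rap, Il1r1, Myd88, Il18bp, Il18, Il1r2, Il1rn, Il1b and Casp1, and from Il1r2 downward the neighbours overlapped. The lengths behind the deposited FPKM exceed the longest GENCODE transcript for several genes, for example 15070 against 4520 bases for Il1rap and 8102 against 2554 for Il1rn. With the longest transcript as the length, Il1rap stood at 24.8 ± 1.18 FPKM alone (counts scaled to the raw library total), next to Myd88 at 23.6 ± 1.35, and Il18bp came after Il1r1. Il1a was first in both groups by either length.

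The wider pathway was read from 46 genes in the table. Among the 28 that could be tested, 5 were higher, 8 were lower and 15 did not pass. Over all genes tested, 17.1% were called higher and 20% lower. With library size alone as the scaling, 7 of the 28 were higher and 6 lower, and with a replicate block 5 were higher and 10 lower. In the main fit the median log2 fold change of the 28 was -0.07, beside 0.0038 over all genes tested. These lists, too, were chosen with earlier results of these data known.

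Among 13 tested genes of the IL-1 signalling cascade, 2 were higher, 1 was lower and 10 did not pass. Of all genes tested, 37.1% were called in either direction. Chuk, a kinase of the NF-kB pathway, rose by 0.62 on the log2 scale (SE 0.075, adjusted p = 0.000218 by edgeR), and its partner Ikbkg rose by 0.96 while Ikbkb fell by 0.29 (the last pair was named after values were seen). Tab2, an adaptor of the TAK1 kinase, had a log2 difference of -0.06 (SE 0.11, adjusted p = 0.666 by edgeR). Irak2 had 327, 781 and 287 counts alone and 292, 477 and 216 with Th17 cells (named after its values were seen). It did not pass in the fit without a replicate block (log2 -0.56, SE 0.39, adjusted p = 0.301 by edgeR).

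Of the other IL-1 family ligands and receptors, 4 of 12 were tested, 3 being higher and 1 lower, and 6 were at 0 in every library. The shares over all genes tested were 17.1% higher and 20% lower. Il33, an alarmin whose receptor pairs ST2 with the Il1rap product, had 223, 186 and 150 counts alone and 413, 349 and 412 with Th17 cells. Its log2 fold change was 1.0 (SE 0.13, adjusted p = 0.000289 by edgeR), just short of the fold threshold. Il33, Il1rl1 and Il1rap were therefore each higher in all 3 cocultured libraries.

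Among 11 tested inflammasome and pyroptosis genes, 6 were lower and 5 did not pass, beside 20% of all genes tested called lower. The median log2 fold change of the 11 was -0.72. Casp4, the inflammatory protease that senses lipopolysaccharide, had 494, 528 and 465 counts alone and 219, 197 and 211 with Th17 cells, a log2 fold change of -1.32 (SE 0.086, adjusted p = 3.61e-06 by edgeR). P2rx7, an ATP-gated channel, fell by 1.19 on the log2 scale, Txnip, a thioredoxin-binding protein, by 1.13 and Gsdmd, the pore-forming substrate of caspase-1 and caspase-11, by 0.65. Nek7, a partner of the sensor NLRP3, had 432, 1480 and 389 counts alone and 537, 1513 and 480 with Th17 cells, a log2 difference of 0.09 (SE 0.57, adjusted p = 0.921 by edgeR). That SE, from the fit without a replicate block, includes the high count of replicate 2 in both groups. Nlrp3 itself had between 10 and 15 counts alone and between 11 and 19 with Th17 cells, and Pycard, the inflammasome adaptor, had 10, 4 and 6 counts against 1, 0 and 0 (the last pair was named after values were seen). Casp1 and its adaptor were thus both at very low counts in these cells.

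Of 28 genes known to be induced by IL-1 in stromal cells, 18 were higher, 7 lower and 3 did not pass, with a median log2 fold change of 0.72. Over all genes tested, 17.1% were higher and 20% lower. Ptgs2, the inducible cyclooxygenase, rose by 1.70 on the log2 scale (SE 0.057, adjusted p = 7.43e-08 by edgeR), Csf1 by 1.01 and Ccl2 by 0.24. Past fold 2, 13 were higher and 4 lower, beside 3.87% and 7.78% of all genes tested. The 7 lower genes were Ccl20 (which passed the filter only through the libraries of fibroblasts alone), Mmp3, Nfkbia, Icam1, Vcam1, Saa3 and Nos2. Of these, the adhesion molecules Vcam1 fell by 3.01 and Icam1 fell by 3.77 on the log2 scale. The largest rises were those of Mmp13, by 2.97, and Csf2, by 2.23 (the falling and rising genes given here were named after values were seen). Genes of this list also respond to IL-17 and TNF, and the part of IL-1 in their change was not tested. The list was chosen with earlier results of these data known, so its shares beside those of all genes are not an independent comparison.

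**Figure D5:**
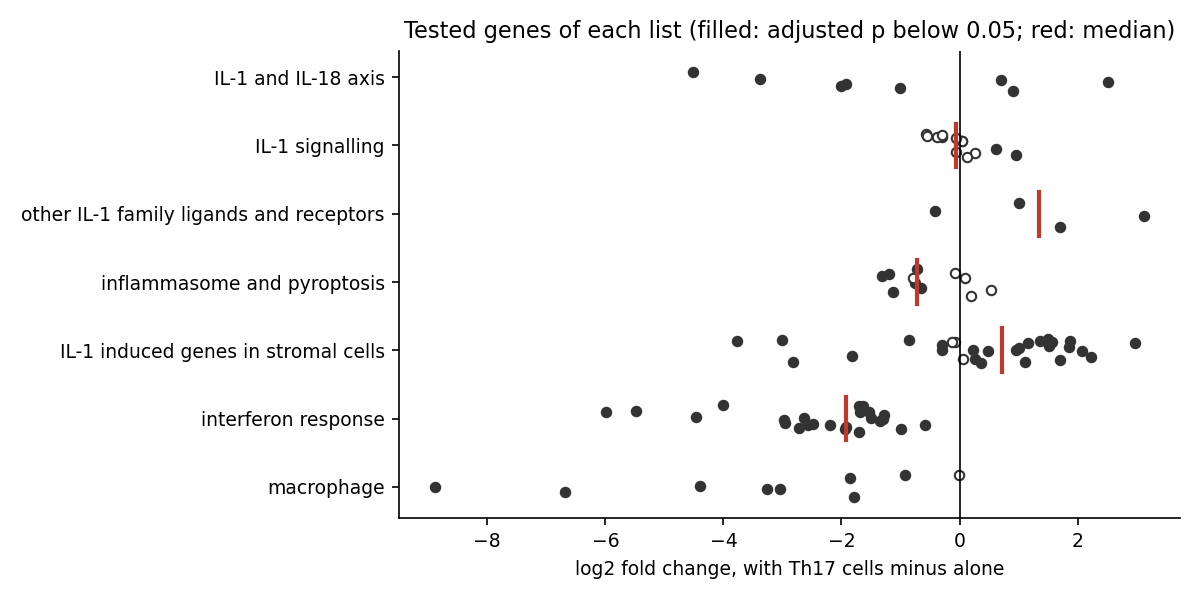
Log2 fold change, with Th17 cells minus alone, of each tested gene of the axis and of 6 further lists, with filled points for an adjusted p below 0.05, open points for the rest and red lines for the medians of 5 of the further lists, the macrophage list having none. All 24 tested interferon genes lie below 0, whereas the IL-1 signalling genes centre near 0. The leftmost macrophage points, Adgre1 and Ptprc, had 0 counts with Th17 cells, so their fitted values depend on the prior count.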

How the data were processed

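The 6 mouse renal fibroblast libraries (VAHTS kit, Illumina NovaSeq) were filtered by the authors with Seqtk and aligned to mm10 with HISAT2 2.0.4. They deposited raw fragment counts per gene from StringTie 1.3.3b, with a deposited FPKM beside each count. Whether strand was used, and how shared fragments were assigned, is not given in the sources used here. Groups came from sample titles, and columns from sample descriptions.

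Counts were tested with edgeR 4.0.16 in R 4.3.3 (filterByExpr with a minimum count of 10, TMM, glmQLFit and glmQLFTest, two-sided, Benjamini-Hochberg over 13088 genes). The common dispersion was 0.0136. Ratios used FPKM and an exact permutation test. Positions were checked against GENCODE M21, in which 34267 identifiers were found, and 99.9% of these overlapped their annotated position. Counting intervals are exact and, like the floor of 3 counts, cover counting error only. Python 3.11.15, pandas 2.3.3, scipy 1.17.1 and matplotlib 3.10.9 were also used.

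The members and lists were chosen with earlier results of these data known. Named are all 10 members, list genes past the threshold, at most 2 well counted genes per pathway list that were not, and, of the target, interferon, macrophage, T cell and fibroblast lists, the 3 genes with most counts (the rule's genes of the remaining cell type lists are covered by summed levels). Genes named outside this rule are marked in the text. Correlations of same-numbered libraries of the 2 groups, taken over deviations from group means, were 0.016, -0.026 and -0.0036. The main fit did not read the numbers as pairs. Nek7, Irak2 and Ninj1, however, were each highest in replicate 2 of both groups (Ninj1 was named after its values were seen). Whether same-numbered libraries share a source was not tested. Alternatives were DESeq2 1.42.0, RLE factors, library size only, other filters on low counts, a replicate block, leaving out each library, and limma 3.58.1 on log2(FPKM + 1).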

Additional observations from a re-analysis of the deposited data

How the results depend on the processing

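All 102 recomputed log2 fold changes of the 8 tested axis genes kept their direction and stayed at an adjusted p below 0.05 (edgeR, DESeq2 or limma). With at least 10 counts required in every library, 3 axis genes were lower and 3 were lower past fold 2, since Il1b and Il18 were then not tested. With limma on log2(FPKM + 1), 2 axis genes were lower past fold 2, and 223 genes in all were higher and 402 lower past fold 2, against 506 and 1018. This alternative changes the model, the scaling and the pseudocount together, and the cause was not tested. In it Il1b was at -1.57, Il1rn at -0.46 and Il18 at -0.91. Leaving out each library in turn gave 3 to 3 axis genes higher and 5 to 6 lower, 1 to 1 higher and 4 to 6 lower past fold 2, 5 to 5 pathway genes higher and 6 to 8 lower, 498 to 522 genes in all higher and 978 to 1029 lower past fold 2, and a log2 ratio of Il1rn to Il1a plus Il1b of -4.77 to -4.28. Il1b then ranged from -5.07 to -3.97. With the replicate block 3 axis genes were higher and 5 lower, 5 pathway genes were higher and 10 lower against 8, and 490 and 1005 genes in all were higher and lower past fold 2, and it changed no call of an axis gene. The same number in both groups is not known to mark a shared culture. Scaling by library size only moved the median of all genes to 0.067 and left 4 axis genes lower past fold 2. Casp1 and Il1r2 are limited by depth, and so are all statements on Il18 and on the cocultured level of Il1b.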
